A study of Mus musculus with 48 samples.

Results

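O4+ cells of 5-day-old mouse pups (P5) were compared between 6 samples from pups given interleukin 1 beta (IL1B) and 6 from pups given phosphate-buffered saline (PBS). These 12 samples were chosen by their labels for cell type, stage and treatment, out of 48 samples in the series, which also hold O4+ cells at P10 and CD11B+ microglia at both ages. By the labels, male Swiss pups received PBS, or IL1B at 10 ng/g of body weight, into the peritoneum from P1 to P4 and 1 last time at P5, and their brains were taken 2 h later. The methods of the study name the OF1 strain, leave out the cerebellum and olfactory bulbs and give a longer interval before collection. No genotype was altered, and both groups went through the same injections and cell isolation. O4+ and CD11B+ cells were taken from the same dissociated tissue in sequence with antibody-coated magnetic beads, and the methods state that tissue of several pups was pooled for a sample. The p-values below therefore measure the spread between such samples.

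The O4 antibody binds sulfated glycolipids on late oligodendrocyte progenitors and immature oligodendrocytes, the cells that will wrap axons in myelin. IL1B binds the receptor Il1r1, whose adaptor Myd88 leads to NF-kB, a family of transcription factors that switches on cytokines, chemokines and its own inhibitors. Given outside the brain, IL1B acts on blood vessels, liver and adrenal gland, and it is used in newborn rodents to imitate the systemic inflammation that disturbs myelination in infants born early. The comparison asks which genes of premyelinating cells differ at the end of the exposure.

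Total RNA was measured on 1-color Agilent mouse arrays, 1 array per sample. A level is the log2 of the deposited background-subtracted intensity after quantile normalization, and a change is the difference of mean log2 levels, IL1B minus PBS, with its standard error. Calls required an adjusted p under 0.05 in limma and group medians more than 1.5-fold apart, and rose or fell is written below only of called probes. Levels of different probes are not comparable. Some changes below rest on a group with only 4 or 5 of its 6 arrays above background, namely those of Hp, Lrg1, Cxcl5, Ripk2, Opalin and Ptx3. Between 55.8% and 62.5% of probes were well above background on the PBS arrays and between 60.4% and 65.4% on the IL1B arrays, and arrays of a group correlated at 0.989 or higher with each other. The number of arrays limits the precision.

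The labelled cell type was checked against marker genes. All 16 markers of the oligodendrocyte lineage were above background on all PBS arrays, and their level was higher in PBS O4+ cells than in PBS CD11B+ cells by a median of 5.10 on the log2 scale. The 23 microglial markers were also above background on all PBS arrays of O4+ cells, at a level below that of CD11B+ cells by a median of 3.07 on the log2 scale. The probes used for Itgam and Siglech went the other way, with more signal in O4+ cells by 2 and 0.39. Whether these probes follow their genes was not tested. Of 37 endothelial markers, 36 were above background on all PBS arrays, with a level above that of CD11B+ cells by a median of 1.05. Signal of microglial and vascular genes was thus present beside that of the oligodendrocyte lineage. In such bulk samples, fewer cells of a type and less RNA per cell cannot be told apart.

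More probes rose than fell with IL1B. Of 55681 probes, 1916 rose (3.44%) and 827 fell (1.49%), so 69.9% of the called probes were higher with IL1B, and the median change over all probes was -0.04. The share was 58.5% with the deposited scaled values, where the median of all probes lay at -0.17, and 81.4% with another background correction. Without the fold threshold it was 36.9%, because small decreases were common. The called probes belong to 1210 genes that rose and 506 that fell, and 1 gene had probes in both directions. Every IL1B array lay above every PBS array on 1498 of the probes that rose, against 4.64% of all probes, and below it on 424 of those that fell, against 6.89% of all probes. Calls and overlap were read from the same arrays, so a lack of overlap, here and below, adds no separate evidence for a call. By the ratio of medians the rises were also the larger changes, since 62 probes rose over 10-fold and 4 fell as much. These counts include probes above background on no array of a group, such as those of Ngp and Grb7, whose ratios are not measured folds.

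**Figure D1:**
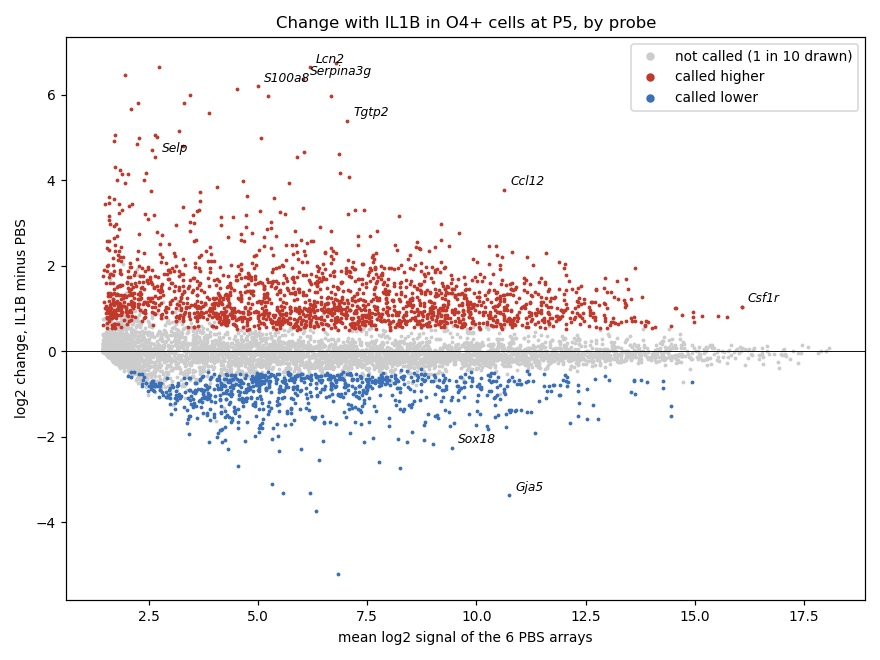
Log2 change with IL1B for each probe (vertical axis) against its mean log2 level on the PBS arrays (horizontal axis) in O4+ cells at P5. Probes that rose are red, probes that fell are blue, and 1 in 10 of the other probes is drawn in grey. The 1916 rises reach further from 0 than the 827 falls.

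The slides did not hold both groups evenly. One slide carried 4 PBS arrays and IL1B array 2, another carried PBS arrays 3 and 6 and IL1B array 1, and the remaining 4 IL1B arrays were on a slide with none of these PBS arrays. The direction was the same within both mixed slides for 98.7% of the probes that rose and 98.2% of those that fell, although these arrays also entered the calls and each such slide holds 1 IL1B array. Under the slide block, 1418 probes rose and 391 fell, and how many calls of a list kept an adjusted p under 0.05 with it is given below wherever some did not. Over all lists below, 77 of 313 called genes had no adjusted p under 0.05 with the block, and for 72 of these the blocked change was within 1.5 times the unblocked one, in the same direction. Of the 15 genes named for the largest rises, 14 kept an adjusted p under 0.05 with the block, and all 15 named for the largest falls did.

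Acute-phase proteins and serine protease inhibitors were among the largest rises. Lcn2, the lipocalin that withholds iron from bacteria, had levels of 5.90 to 6.69 (median 6.12) on the PBS arrays and 11.99 to 13.51 (median 12.94) on the IL1B arrays. The groups did not overlap, and Lcn2 rose 113-fold by the ratio of medians (change 6.64 ± 0.23, adjusted p = 7.92e-08, limma). Its probe lies at chr2:32240199-32240258 in the mm9 build. Of 21 acute-phase genes, 10 rose and none fell (median change 0.45), while 9 were above background on no PBS array. Of the 10, Il1rn and Orm1 were above background on no array of either group. The median was 0.32 with the 9 genes at their lower bounds, or at 0 where no fold can be given, and 0.13 with normexp background correction. The iron reductase Steap4 lay at 1.61 to 2.89 (median 1.63) without and 5.20 to 6.84 (median 6.12) with IL1B, above background only with IL1B, and was at least 5.5-fold higher. Serum amyloid Saa3 was likewise above background only with IL1B, at least 11-fold higher (adjusted p = 8.79e-06, limma). Smaller rises were those of Hp, the hemoglobin scavenger haptoglobin (3.15 ± 0.54), Lrg1, a secreted leucine-rich glycoprotein (2.74 ± 0.30), and the copper oxidase Cp (1.32 ± 0.12). The complement proteins Cfb (2.92 ± 0.11) and C3 (1.05 ± 0.08) rose too, and the other probe of C3 rose by 2.58. Saa1, by contrast, had a change of 0.32 ± 0.06, under the fold threshold, and Ptx3 one of 0.32 ± 0.68 (adjusted p = 0.798). After blocking on slide, 9 of the 10 rises kept an adjusted p under 0.05.

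The Serpina3 genes lie side by side on chromosome 12 and encode secreted or cytoplasmic inhibitors of serine proteases. Of 11 members, 5 rose, all 5 with every IL1B array above every PBS array. Serpina3f lay at 6.02 to 7.27 (median 6.89) without and 13 to 14.42 (median 13.45) with IL1B, a 94.3-fold rise (change 6.75 ± 0.27, adjusted p = 2.5e-07). Serpina3g lay at 5.56 to 6.58 (median 6.14) without and 11.79 to 13.65 (median 12.10) with IL1B and rose 62.3-fold (change 6.36 ± 0.33). Serpina3i rose 28.2-fold (change 4.98 ± 0.21), while Serpina3h and Serpina3b had smaller rises of 2.60 ± 0.15 and 2.08 ± 0.21. Serpina3n, the member used as a marker of reactive astrocytes, had a change of 0.25 ± 0.09 (adjusted p = 0.0656). These paralogs are alike in sequence, and how far their probes share targets was not tested.

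Genes of neutrophil granules rose as far but with a wide spread between samples. S100a8, a subunit of calprotectin, had PBS levels of 4.09 to 5.85 (median 5.02) and IL1B levels of 8.70 to 12.97 (median 11.83). The groups did not overlap, yet the IL1B arrays spanned over 4 log2 units, and the 112-fold rise had a wide error (change 6.20 ± 0.73, adjusted p = 0.000173). Its partner S100a9 rose 104-fold (change 5.98 ± 0.75). Of 18 neutrophil markers, 15 rose, with a median change of 3.44, and 6 were above background on no PBS array. With those 6 at their lower bounds, or at 0 without one, the median was 2.57, and with normexp background correction it was 1.3. The mean level of the list was 4.60 to 5.30 on the PBS arrays and 6.56 to 9.40 on the IL1B arrays. Retnlg, a resistin-like secreted protein, was at least 21.6-fold higher. Other granule genes above background only with IL1B were the lactoferrin gene Ltf (at least 16.5-fold) and Ngp (at least 9.04-fold). The cystatin-family genes Cstdc5 (88.1-fold) and Stfa2 (32.5-fold) rose too, and Cstdc4 was at least 52-fold higher. Camp, the cathelicidin precursor, rose 14.9-fold (change 3.27 ± 0.65, adjusted p = 0.09 with slide as a block). The neutrophil elastase Elane had a change of 0.19 ± 0.11. When slide was a block, 9 of the 15 rises kept an adjusted p under 0.05, and within the mixed slides the list's median was 4.33 and 2.61. IL1B arrays 1 and 3 were the lowest of the IL1B arrays for Retnlg (6.61 and 5.22). They were also the lowest for genes of other cells that were not called, such as the erythroid Hba-a1 (14.61 and 14.5) and the ependymal Foxj1 (6.31 and 6.55). Whether these spreads have a common source was not tested.

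**Figure D2:**
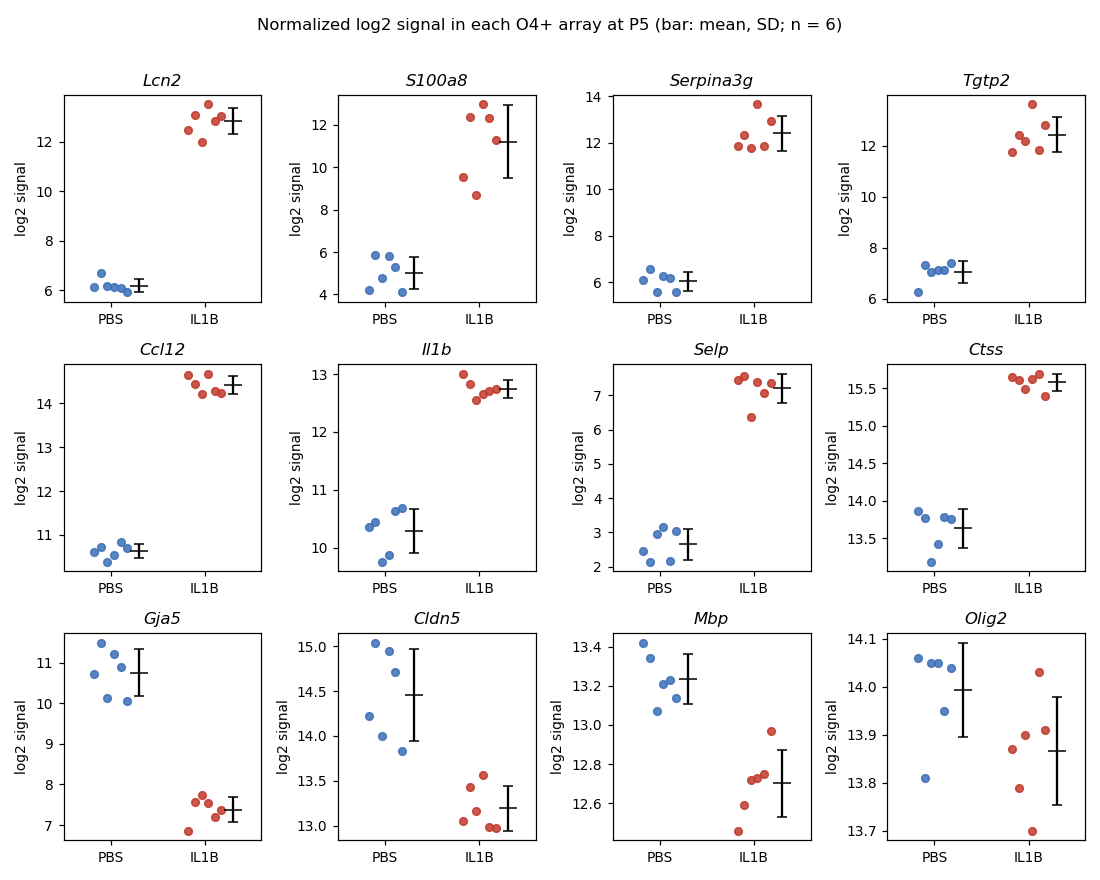
Normalized log2 level of 12 genes on each of the 6 PBS and 6 IL1B arrays of O4+ cells at P5, with the mean and SD of each group as a bar. Each panel has its own vertical scale. Lcn2 and Serpina3g are separated by about 6 log2 units, S100a8 is spread widely with IL1B, Gja5 and Cldn5 are lower with IL1B, and Olig2 overlaps between the groups.

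The genes of the IL1 system itself came next. Il1b, which encodes the same cytokine, had levels of 9.76 to 10.68 (median 10.40) without and 12.56 to 13.01 (median 12.72) with IL1B. All IL1B arrays lay above all PBS arrays, and Il1b rose 5.01-fold (change 2.46 ± 0.16, adjusted p = 3.77e-06). Il1a, the other agonist of the same receptor, rose as well (2.08 ± 0.15). Of 17 genes of the IL1 family and the inflammasome, 10 rose and none fell, with a median change of 1.02. The median was 0.35 with normexp background correction, and 0.47 with the 4 genes above background on no array of a group at their bound or at 0. The signalling receptor Il1r1 lay at 5.91 to 6.82 (median 6.51) without and 7.05 to 8.22 (median 7.76) with IL1B (change 1.28 ± 0.21). The decoy receptor Il1r2, which binds IL1B without signalling, also rose (2.58 ± 0.41). It was above background on 2 PBS and all 6 IL1B arrays, so the size of its rise is uncertain. Among the parts of the inflammasome, the protease complex that matures IL1B, the sensor Nlrp3 (1.64 ± 0.16), the adaptor Pycard (0.75 ± 0.16) and the caspases Casp1 (1.56 ± 0.16) and Casp4 (2.45 ± 0.17) rose. The antagonist Il1rn was called but was above background on no array of either group, so no fold is given. The co-receptor Il1rap (0.47 ± 0.13) stayed under the fold threshold, and the alarmin Il33 had a change of -0.22 ± 0.24 (adjusted p = 0.583). With slide as a block, 9 of the 10 rises kept an adjusted p under 0.05.

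Downstream of the receptor, some NF-kB subunits and some inhibitors of NF-kB rose. Of 24 NF-kB genes, 13 rose and none fell (median change 0.65, and 0.42 with normexp background correction). Bcl3, a nuclear partner of the p50 and p52 subunits, had levels of 8.66 to 9.61 (median 9.15) without and 11.70 to 12.58 (median 12.19) with IL1B. Its groups were fully apart, and Bcl3 rose 8.24-fold (change 2.99 ± 0.17, adjusted p = 1.22e-06). The precursor subunit Nfkb2 rose by 1.6 ± 0.11, and Relb, fitted on 11 arrays because 1 of its spots was marked as non-uniform, by 1.45 ± 0.09. Rel was above background on no PBS array and on 4 IL1B arrays, so its rise has no measured size. Rela and Nfkb1, the subunits of the common heterodimer, had adjusted p-values of 0.00283 and 0.00467 with changes of 0.36 ± 0.06 and 0.50 ± 0.10, under the fold threshold. The ubiquitin editor Tnfaip3 (0.97 ± 0.10), its partners Tnip1 (0.93 ± 0.09) and Tnip2 (0.69 ± 0.07) and the inhibitors Nfkbie (0.85 ± 0.06), Nfkbid (0.82 ± 0.14) and Nfkbiz (0.62 ± 0.13) rose. Nfkbia, the first inhibitor to be rebuilt after activation, had a change of 0.53 ± 0.09, also under the fold threshold. The block left 12 of the 13 NF-kB rises with an adjusted p under 0.05.

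Among 17 signal transducers of IL1 and Toll-like receptors, 6 rose and 1 fell. Zc3h12a, a ribonuclease that destroys cytokine messages, rose most, with levels of 5.19 to 6.33 (median 5.53) without and 8.57 to 9.34 (median 8.76) with IL1B (change 3.21 ± 0.19). The kinase Map3k8 (1.70 ± 0.11), the adaptor Myd88 (1.02 ± 0.08) and the kinase Ripk2 (1.01 ± 0.12) rose by less. Sigirr, a receptor that dampens IL1 signalling, was the gene that fell (-0.89 ± 0.19, adjusted p = 0.00642, and 0.0751 with slide as a block). With the block, 5 of the 7 calls kept an adjusted p under 0.05, without Sigirr and the inhibitory kinase Irak3 (adjusted p = 0.125). Of 15 Toll-like receptors and co-receptors, 10 rose (median change 0.88, and 0.58 with normexp background correction), led by the lipopolysaccharide co-receptor Cd14 (2.46 ± 0.21) and the RNA sensors Tlr7 (1.94 ± 0.12) and Tlr13 (1.74 ± 0.12). The block left 8 of these 10 rises with an adjusted p under 0.05. In brain, microglia use many of these genes. In PBS samples, 13 of the 15 had less signal in O4+ than in CD11B+ cells (adjusted p under 0.05, limma; 29% of all probes did), as had 12 of the 17 genes of the IL1 family and 19 of the 24 NF-kB genes. Of 23 microglial markers, 16 rose with IL1B in the O4+ samples (median change 1.05 over the 23), and their part in these rises was not tested.

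The promoters of list members were also read for the letters of binding motifs, whether or not the gene was called. The window was the 250 bases before each RefSeq start (GRCm38.p6), read on both strands. The kappaB motif, the recognition sequence of NF-kB, was searched as GGG and TTTCC and, in a shorter form, GGG and TTCC, each pair separated by any 2 bases, 2 patterns whose matches can overlap within 1 site. The longer form was present in a promoter of 1.65% and the shorter of 5.61% of 27025 genes. Among the NF-kB list, 6 and 9 of 20 genes with a promoter held them, and 3 and 7 of the 11 that rose. Among the Serpina3 genes, 3 and 2 of 8 with a promoter did, and among the acute-phase genes 2 and 2 of 18. The promoters of Nfkb2 (chr19:46304487-46304736, plus strand) and Rel (chr11:23770970-23771219, minus strand) are shown because both genes rose and are subunits of the factor whose letters they hold, and that of Serpina3g (chr12:104235897-104236146, plus strand) because it had the largest change among the Serpina3 genes that hold the letters. The sequences run 5′ to 3′, and capitals mark the letters of either form.
Nfkb2: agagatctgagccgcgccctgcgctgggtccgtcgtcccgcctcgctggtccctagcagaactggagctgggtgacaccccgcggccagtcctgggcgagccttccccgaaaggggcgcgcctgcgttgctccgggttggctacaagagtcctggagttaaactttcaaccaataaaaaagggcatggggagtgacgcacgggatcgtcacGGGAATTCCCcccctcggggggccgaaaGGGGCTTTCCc
Rel: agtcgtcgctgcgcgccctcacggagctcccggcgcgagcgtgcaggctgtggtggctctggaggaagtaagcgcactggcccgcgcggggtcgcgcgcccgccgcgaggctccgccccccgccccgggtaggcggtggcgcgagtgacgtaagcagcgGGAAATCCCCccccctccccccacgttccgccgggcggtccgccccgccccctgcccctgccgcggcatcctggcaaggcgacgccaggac
Serpina3g: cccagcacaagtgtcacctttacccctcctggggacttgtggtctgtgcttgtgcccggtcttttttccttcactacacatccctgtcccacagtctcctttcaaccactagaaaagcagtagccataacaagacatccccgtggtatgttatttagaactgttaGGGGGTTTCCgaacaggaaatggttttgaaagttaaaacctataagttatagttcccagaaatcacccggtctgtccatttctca
A match describes the letters of the window and says nothing of binding.

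Cytokines of the IL6 family and the genes their receptors activate through STAT3 rose in part. Of 24 genes, 11 rose and none fell (median change 0.33). Socs3, the feedback inhibitor of the IL6 receptor, had levels of 10.80 to 11.40 (median 11.17) without and 13.01 to 13.69 (median 13.39) with IL1B. The groups did not overlap, and Socs3 rose 4.66-fold (change 2.21 ± 0.13, adjusted p = 1.53e-06). The transcription factors Cebpb (2.29 ± 0.11) and Cebpd (1.71 ± 0.17), which drive acute-phase genes, rose alongside. The ligands Il6 (1.78 ± 0.30) and Osm (1.97 ± 0.14) and the receptor chain Il6ra (1.34 ± 0.10) rose, and Il4ra, a receptor chain for other cytokines, rose by 2.82 ± 0.32. Stat3 itself had a change of 0.33 ± 0.06, under the fold threshold. In PBS samples the genes of this list that rose had less signal in O4+ than in CD11B+ cells. The level difference was -2.15 for Socs3, -3.04 for Cebpb, -4.14 for Il6, -3.82 for Osm and -3.22 for Il6ra on the log2 scale. The part of the microglial markers' rise was not tested.

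Growth factors of myeloid cells and members of the TNF family rose in part. Csf3, the granulocyte growth factor, was above background on no PBS and on all IL1B arrays, at least 3.08-fold higher (adjusted p = 8.6e-07). The shared beta chains Csf2rb (2.78 ± 0.15) and Csf2rb2 (2.47 ± 0.13) and Csf1, the growth factor of microglia (0.86 ± 0.10), also rose, so that 5 of 12 colony-stimulating factors and receptors did. In PBS samples Csf2rb, Csf2rb2 and Csf1 had less signal in O4+ than in CD11B+ cells (-3.71, -3.36 and -2.88 on the log2 scale). The part of the microglial markers' rise in them was not tested. In the TNF superfamily, 6 of 21 genes rose. They included the death receptor Fas (2.13 ± 0.23), the death ligand Tnfsf10 (1.57 ± 0.29) and the TNF receptor Tnfrsf1b (1.45 ± 0.14). Tnf had levels of 10.59 to 11.34 (median 11.03) and 11.06 to 11.57 (median 11.34), which overlapped, and a change of 0.33 ± 0.13 (adjusted p = 0.104).

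Chemokines that attract monocytes were among the CC chemokines that rose. Ccl12, a ligand of the monocyte receptor Ccr2, had levels of 10.39 to 10.83 (median 10.66) without and 14.22 to 14.68 (median 14.36) with IL1B. With no overlap and little spread in either group, Ccl12 rose 12.9-fold (change 3.78 ± 0.10, adjusted p = 1.45e-08). Ccl8 was above background on 2 PBS and all IL1B arrays and rose by 5.16 ± 0.41. The inflammatory ligands Ccl3 (1.16 ± 0.15), Ccl4 (1.27 ± 0.13), Ccl5 (1.46 ± 0.08) and Ccl2 (0.95 ± 0.25) rose by less, and Ccl2 overlapped between the groups (adjusted p = 0.102 with slide as a block). In all, 11 of 24 CC chemokines and receptors rose and none fell (median change 0.68, and 0.43 with normexp background correction). The median was 0.95 with slide as a block, under which 9 of the 11 rises kept an adjusted p under 0.05, and 0.78 and 1.13 within the mixed slides. In PBS samples, 17 of the 24 had less signal in O4+ than in CD11B+ cells, against 29% of all probes.

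Of 21 CXC and CX3C chemokines and receptors, 9 rose and 1 fell. The list's median change was 0.19 with the 5 members above background on no array of a group at their bound or at 0. Cxcl10, a ligand induced by interferon that attracts T cells, lay at 10.80 to 11.54 (median 11.47) without and 12.74 to 14.36 (median 13.07) with IL1B (change 2.01 ± 0.26, adjusted p = 0.000383), although its second probe was not called. Its neighbor Cxcl9 had a probe above background only with IL1B, at least 27.8-fold higher, while its brighter probe rose by 2.68 ± 0.45. Ligands of the neutrophil receptor Cxcr2 rose as well, namely Cxcl5 (3.15 ± 0.18), Cxcl1 (1.09 ± 0.21) and Cxcl2 (0.84 ± 0.17), the last 2 with overlapping groups. Cxcl12, which vessels and meninges make and which guides progenitor cells, fell in 1 of its 2 probes, with levels of 10.79 to 11.90 (median 11.31) without and 9.13 to 10.04 (median 9.31) with IL1B (change -1.90 ± 0.24). Under the slide block, 6 of the 10 calls of this list kept an adjusted p under 0.05. Those lost included Cxcl1 (adjusted p = 0.0811), Cxcl2 (adjusted p = 0.0704) and the brighter probe of Cxcl9 (adjusted p = 0.0648).

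Interferon-inducible GTPases rose almost without exception. These guanylate-binding and immunity-related GTPases coat and break the vacuoles of intracellular pathogens, and interferon gamma is their classical inducer. Of 19 members, 17 rose, with a median change of 1.87. Tgtp2 had levels of 6.24 to 7.40 (median 7.14) without and 11.76 to 13.62 (median 12.30) with IL1B. The groups lay over 4 log2 units apart, and Tgtp2 rose 35.8-fold (change 5.39 ± 0.31, adjusted p = 1.53e-06), while its other probe rose less. Gbp2 rose 14.6-fold (change 4.18 ± 0.38), Ifi47 by 3.30 ± 0.28 and Igtp by 3.16 ± 0.28. One Iigp1 probe was above background only with IL1B, at least 12.6-fold higher, and its brighter probe rose by 1.38 ± 0.23 (adjusted p = 0.0855 with slide as a block). Gbp5 rose 14.1-fold on 1 of its 2 probes. After blocking on slide, 12 of the 17 rises kept an adjusted p under 0.05, and the list's median within the mixed slides was 1.61 and 1.78.

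The letters of the interferon-stimulated response element, GAAA and GAAA separated by any 2 bases on either strand, stood in a promoter of 3.46% of all genes and in 10 of the 11 GTPase genes with a promoter in the same 250-base window. The STAT pattern TTCC and GGAA separated by any 1 base stood in a promoter of 1.09% of all genes and in 4 of these 11 genes. Promoters of Tgtp2 (chr11:49064213-49064462, minus strand), Gbp2 (chr3:142620413-142620662, plus strand) and Igtp (chr11:58199306-58199555, plus strand) are shown. These GTPases had some of the largest changes among those that rose and hold the letters of the response element, so the choice required the letters. Capitals mark the response element, which begins 70 bases before the start in Tgtp2, 59 in Gbp2 and 34 in Igtp.
Tgtp2: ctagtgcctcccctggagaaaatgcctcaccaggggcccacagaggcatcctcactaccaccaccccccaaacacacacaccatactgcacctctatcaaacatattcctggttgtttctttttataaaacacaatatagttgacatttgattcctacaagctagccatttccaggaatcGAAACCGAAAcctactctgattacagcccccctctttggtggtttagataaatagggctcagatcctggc
Gbp2: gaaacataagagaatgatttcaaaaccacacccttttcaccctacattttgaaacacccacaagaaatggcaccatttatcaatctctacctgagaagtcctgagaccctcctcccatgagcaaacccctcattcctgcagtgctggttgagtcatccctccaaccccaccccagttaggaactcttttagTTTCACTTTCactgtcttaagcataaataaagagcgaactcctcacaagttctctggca
Igtp: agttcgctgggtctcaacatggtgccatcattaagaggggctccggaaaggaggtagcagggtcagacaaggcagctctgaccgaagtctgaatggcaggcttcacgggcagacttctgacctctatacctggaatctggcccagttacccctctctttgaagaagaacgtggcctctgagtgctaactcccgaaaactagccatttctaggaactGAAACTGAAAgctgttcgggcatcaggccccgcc
In the list of type I interferon antiviral genes, 8 of 18 genes with a promoter held the same letters, and in the endothelial markers described below 0 of 27 did.

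Antiviral genes were called in part. Of 27, 13 rose and none fell (median change 0.71), among them the nucleic acid sensor Zbp1 (2.07 ± 0.28), the ADP-ribosyltransferase Parp14 (2.01 ± 0.21) and Ifit3 (1.19 ± 0.24). The ubiquitin-like protein Isg15 lay at 9.69 to 10.42 (median 10.10) without and 10.56 to 12.02 (median 11.19) with IL1B, a rise of 1.08 ± 0.21. When slide was a block, 4 of the 13 rises kept an adjusted p under 0.05, and Isg15 (adjusted p = 0.132) and Ifit3 (adjusted p = 0.147) did not. Among interferon receptors and transcription factors, 7 of 17 rose, including both receptor chains for interferon gamma, Ifngr1 (0.89 ± 0.09) and Ifngr2 (0.78 ± 0.05), and the factors Irf1 (0.83 ± 0.13), Irf5 (1.43 ± 0.14) and Irf8 (1.31 ± 0.12). Ifng itself was above background on no PBS and on 2 IL1B arrays (adjusted p = 0.0436). With slide as a block, 4 of these 7 rises kept an adjusted p under 0.05, without Irf1 (adjusted p = 0.0501) and Ifng (adjusted p = 0.436).

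Antigen presentation followed. Of 20 genes of MHC class I and the immunoproteasome, 12 rose and none fell (median change 0.77). Nlrc5, the transactivator of class I genes, lay at 4.73 to 5.32 (median 5.11) without and 7.63 to 9.75 (median 8.03) with IL1B, with the groups apart (change 3.28 ± 0.32). The immunoproteasome subunits Psmb8 (1.62 ± 0.14) and Psmb9 (1.76 ± 0.18), the peptide transporter Tap1 (1.53 ± 0.17) and the light chain B2m (1.20 ± 0.10) rose. Under the slide block, 9 of the 12 rises kept an adjusted p under 0.05. In MHC class II, 5 of 10 genes rose, led by the invariant chain Cd74, which had levels of 6.76 to 7.48 (median 7.08) and 9.85 to 10.99 (median 10.17) (change 3.21 ± 0.19, adjusted p = 1.53e-06). The class II transactivator Ciita had a change of -0.05 ± 0.28 (adjusted p = 0.935). Microglia also carry these genes, and the part of the microglial markers' rise was not tested.

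Complement genes rose in 12 of 23 members, with a median change of 0.93, and all 12 kept an adjusted p under 0.05 with slide as a block. The alternative-pathway protease Cfb (2.92 ± 0.11) and the anaphylatoxin receptor C3ar1 (1.96 ± 0.12) were among them. The other such receptor, C5ar1 (3.20 ± 0.19), was above background on 1 PBS array and all IL1B arrays, so the size of its rise is uncertain. The initiating chains C1qa (1.64 ± 0.12), C1qb (1.79 ± 0.17) and C1qc (1.69 ± 0.14), made in brain by microglia, and the proteases C1ra (1.99 ± 0.22) and C4b (1.94 ± 0.21) also rose. In PBS samples the complement genes that rose had less signal in O4+ than in CD11B+ cells, apart from C1s1. C1qa, C1qb and C1qc also count among the 23 microglial markers, of which 16 rose, and the part of that rise was not tested.

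Lipid mediators and proteases were mixed. Ch25h, which makes the oxysterol 25-hydroxycholesterol, had levels of 4.08 to 5.05 (median 4.77) without and 8.08 to 9.11 (median 8.64) with IL1B. The groups did not overlap, and it rose 14.6-fold (change 3.98 ± 0.20, adjusted p = 7.26e-07). The prostaglandin E2 receptor Ptger4 (3.73 ± 0.26, above background on 1 PBS array) and the cyclooxygenases Ptgs1 (1.41 ± 0.10) and Ptgs2 (1.79 ± 0.15) rose. The endothelial nitric oxide synthase Nos3 (-1.50 ± 0.22) and the prostaglandin-degrading Hpgd (-1.66 ± 0.44) fell, in a list of 20 where 7 rose. Of the 9 calls, 7 kept an adjusted p under 0.05 with slide as a block, and Hpgd (adjusted p = 0.53) was among those that did not. Of 22 matrix proteases and inhibitors, 7 rose, among them the urokinase receptor Plaur (2.34 ± 0.14), and 3 of them kept an adjusted p under 0.05 with slide as a block. Other large rises outside these lists were those of the myeloid receptor Cd300lf (25.5-fold, change 4.66 ± 0.13), the niacin receptor Hcar2 (14.4-fold) and Acod1, the itaconate-making enzyme of activated macrophages (at least 12.4-fold).

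Immediate early genes and glucocorticoid targets were also among the rises. Of 27 immediate early genes, transcription factors and phosphatases that respond to many stimuli within minutes, 20 rose and none fell, with a median change of 0.79. Fosl2 (2.02 ± 0.18), Fos (1.12 ± 0.12), Junb (1.14 ± 0.13), Atf3 (1.12 ± 0.11) and the message-destabilizing Zfp36 (1.18 ± 0.18) were among them. Jun (0.26 ± 0.08) and Myc (0.18 ± 0.06) were not called. These genes also respond to tissue dissociation, which both groups went through, and its part was not tested. After blocking on slide, 15 of the 20 rises kept an adjusted p under 0.05, and Zfp36 (adjusted p = 0.0553) did not.

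Of 14 glucocorticoid-response genes, 7 rose. The clock gene Per1 lay at 11.58 to 12.14 (median 11.92) without and 13.67 to 14.11 (median 14.03) with IL1B (change 2.08 ± 0.10, adjusted p = 5.84e-07), although 1 of its 2 probes was not called. The receptor co-chaperone Fkbp5 lay at 11.18 to 11.44 (median 11.28) without and 12.35 to 12.71 (median 12.62) with IL1B (change 1.30 ± 0.07), and the hypoxia-factor relative Hif3a rose by 2.82 ± 0.24. All 7 rises were without overlap and kept an adjusted p under 0.05 with slide as a block. The metal-binding Mt2 (1.71 ± 0.20) and Mt1 (1.02 ± 0.12) and the heme oxygenase Hmox1 (0.98 ± 0.10) rose, whereas the transferrin receptor Tfrc, which brings iron into cells, fell on all 3 of its probes (-1.08 ± 0.11). Only 2 of 18 oxidative stress genes rose, the regulator Nfe2l2 (1.44 ± 0.12) and Hmox1. No gene was called among 18 of the unfolded protein response or 11 heat shock proteins.

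**Figure D3:**
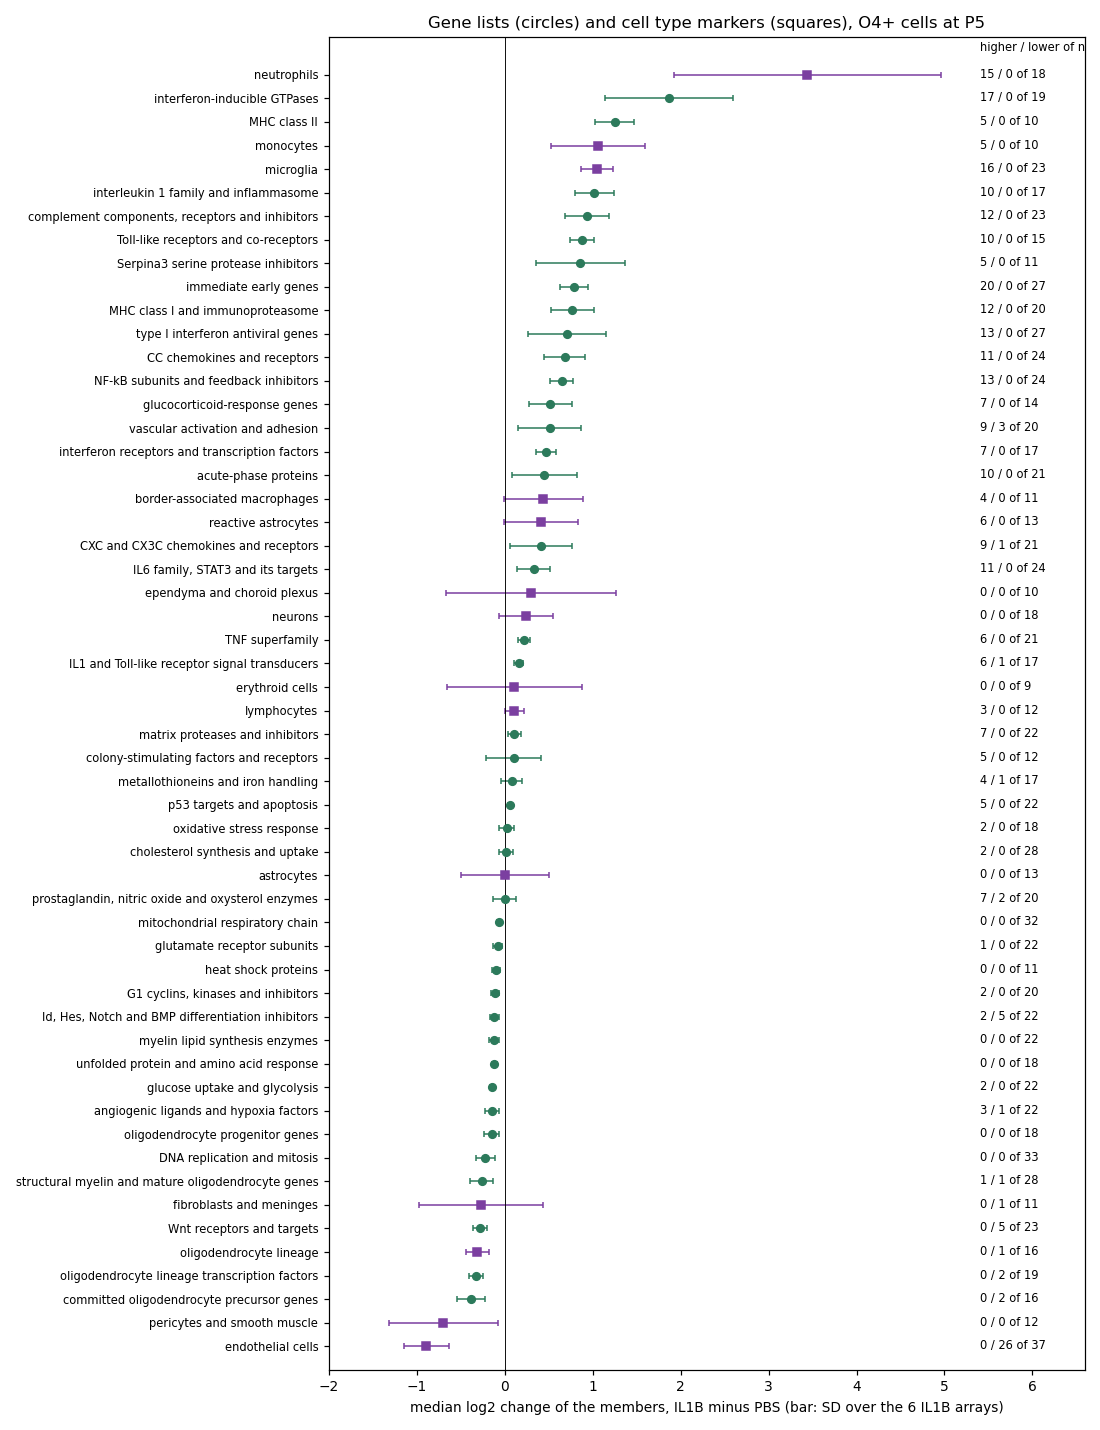
Median log2 change with IL1B over the members of each gene and marker list in O4+ cells at P5 (points), with the SD of the list's median over the 6 IL1B arrays as a bar and the numbers of members that rose and fell beside each list. Neutrophil markers and interferon-inducible GTPases lie furthest above 0, with medians of 3.44 and 1.87, and endothelial markers lie lowest at -0.89.

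Microglial markers moved with these immune genes. Of 23, 16 rose and none fell (median change 1.05), and all 16 kept an adjusted p under 0.05 with slide as a block. The brightest probes of Itgam and Siglech, which the list uses, were not called (-0.22 and -0.01), whereas 2 other probes of Itgam and 1 of Siglech rose, by up to 1.78 and 0.83. The lysosomal protease Ctss lay at 13.19 to 13.86 (median 13.77) without and 15.40 to 15.70 (median 15.62) with IL1B (change 1.95 ± 0.11), with no overlap. Tmem119, a membrane protein specific to microglia in brain, lay at 11.31 to 11.85 (median 11.60) without and 12.55 to 12.87 (median 12.66) with IL1B (change 1.08 ± 0.09, adjusted p = 1.26e-05). The growth factor receptor Csf1r (1.05 ± 0.10), the chemokine receptor Cx3cr1 (0.83 ± 0.08) and the signalling pair Trem2 (1.45 ± 0.15) and Tyrobp (1.22 ± 0.14) rose. The purinergic receptors P2ry12 (0.47 ± 0.10) and P2ry13 (0.59 ± 0.10) stayed under the fold threshold, and the transcription factor Sall1 had a change of 0.24 ± 0.09 (adjusted p = 0.104). The mean level of the list was 12.42 to 12.98 on the PBS arrays and 13.55 to 13.99 on the IL1B arrays.

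The same markers were compared in CD11B+ cells of the same age. There, none of the 23 rose and 5 fell, with a median change of -0.16. The difference of the responses was tested with an interaction term, and it was more positive in O4+ than in CD11B+ cells for 21 of the 23, against 6.93% of all probes. For Tmem119 the change in CD11B+ cells was -0.25 ± 0.07, and the responses differed by 1.37 ± 0.12 (adjusted p = 6.09e-08). Immediate early genes showed a like contrast, with a median change of 0.04 in CD11B+ cells and a more positive response in O4+ cells for 21 of 27. Atf3 had a change of -0.26 ± 0.07 in CD11B+ cells, a difference of 1.42 ± 0.14 (adjusted p = 3.73e-07). Both cell types came from the same tissue, and how much microglial RNA each O4+ sample held was measured only through these markers.

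**Figure D4:**
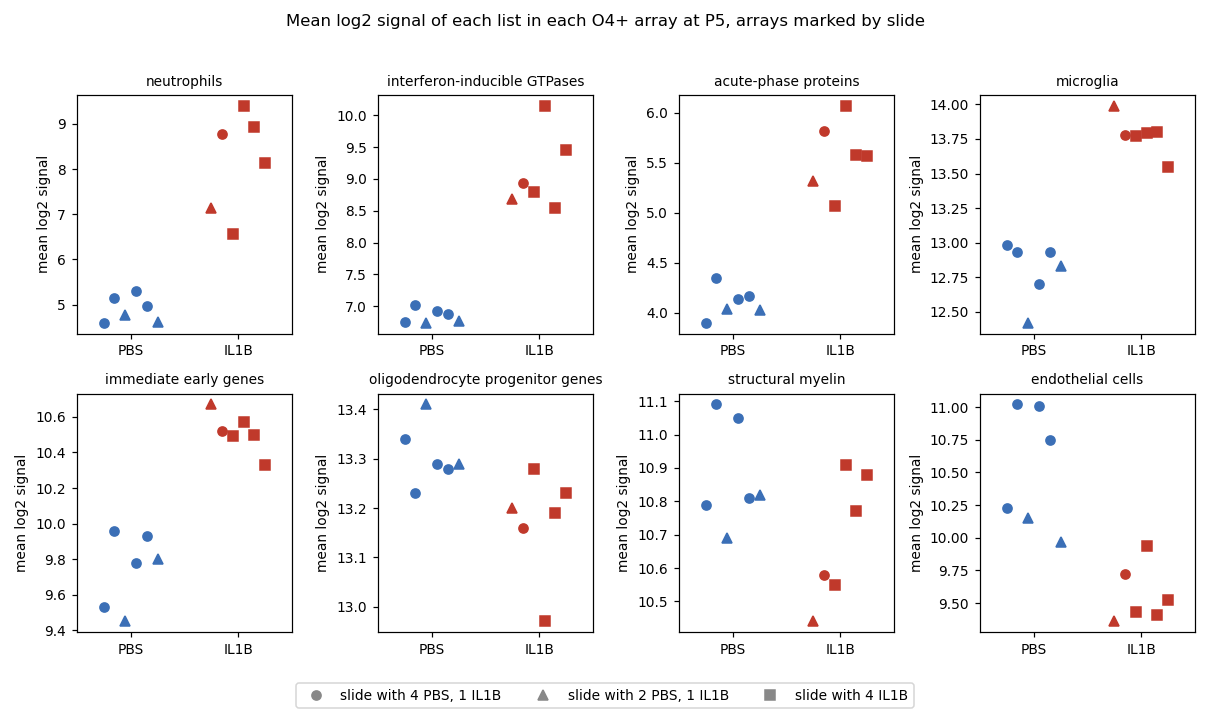
Mean log2 level of 8 gene and marker lists on each array of O4+ cells at P5, PBS and IL1B side by side, with the marker shape giving the slide. Neutrophil, GTPase, acute-phase and microglial lists lie higher with IL1B on both slides that carry PBS and IL1B arrays, and the endothelial list lies lower.

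Markers of other blood and brain cells were examined in the same way. Of 11 markers of border-associated macrophages, 4 rose, including the mannose receptor Mrc1 (0.86 ± 0.19), and 2 of the 4 kept an adjusted p under 0.05 with slide as a block, without Mrc1 (blocked change 0.99, adjusted p = 0.0784) and Cbr2 (blocked change 0.75, adjusted p = 0.308). Among 10 monocyte markers, 5 rose, led by the receptor Clec4e, which was above background only with IL1B (at least 4.84-fold), and 1 of them kept an adjusted p under 0.05 with slide as a block. Ms4a4c and F10 were not called by their brightest probes (0.25 and 0.01), but 2 other probes of Ms4a4c and 1 of F10 rose, by up to 3.22 and 1.66. Of 12 lymphocyte markers, 3 rose, among them the B cell receptor chain Cd79b (1.23 ± 0.16) and the T cell receptor chain Cd3d, above background on no PBS and on 4 IL1B arrays (at least 1.48-fold). Of these 3, Cd79b alone kept an adjusted p under 0.05 with the block. No marker was called among 13 of astrocytes, where Gfap had a change of 0.41 ± 0.42 (adjusted p = 0.557), or among 18 of neurons, 9 of erythroid cells and 10 of ependyma. The list for reactive astrocytes had 6 of 13 members that rose, of which Lcn2, Steap4, Cxcl10 and Cp are also acute-phase or interferon-induced genes. Those 4 kept an adjusted p under 0.05 with the block, whereas Timp1 (adjusted p = 0.2) and Cd44 (adjusted p = 0.108) did not. The change of Gfap was -0.04 with the block.

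Several of the largest falls were in genes of blood vessels. Gja5, the gap junction protein of arterial endothelium, had levels of 10.05 to 11.49 (median 10.80) without and 6.86 to 7.73 (median 7.45) with IL1B. The groups were over 2 log2 units apart, and Gja5 fell by 3.37 ± 0.25 on the log2 scale, 10.2-fold by medians (adjusted p = 8.03e-06), on 1 of its 3 probes, at chr3:96857349-96857408 in mm9. Sox18, a transcription factor of vessel growth, lay at 8.76 to 10.02 (median 9.45) without and 6.97 to 7.47 (median 7.18) with IL1B (change -2.25 ± 0.22). Others of the 15 largest falls were Gpr182, an atypical chemokine receptor of vessels (-2.17 ± 0.28), multimerin Mmrn1 (-2.04 ± 0.25), the carbonic anhydrase Car4 (-1.89 ± 0.23), the endothelial chaperone Hspa12b (-1.82 ± 0.17) and the venous ephrin receptor Ephb4 (-1.74 ± 0.27). The alcohol dehydrogenase Adh1 (-2.11 ± 0.22), Syt15 (-2.73 ± 0.20), Degs2 (-2.02 ± 0.22) and the monoacylglycerol acyltransferase Mogat2 (-2.58 ± 0.39) were not on a marker list. The adaptor Grb7 was above background on all PBS and no IL1B array, at least 7.6-fold lower, and so were Tescl (at least 4.5-fold) and the transcription factor Mecom (at least 2.03-fold).

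Of 37 endothelial markers, 26 fell and none rose, with a median change of -0.89. Their mean level was 9.97 to 11.02 on the PBS arrays and 9.36 to 9.94 on the IL1B arrays. The tight junction protein Cldn5 lay at 13.83 to 15.04 (median 14.46) without and 12.97 to 13.56 (median 13.10) with IL1B (change -1.27 ± 0.22, adjusted p = 0.00226), and the groups did not overlap. The receptors Kdr (-1.21 ± 0.21) and Tek (-1.35 ± 0.20), the phosphatase Ptprb (-1.57 ± 0.22), the factor Sox17 (-1.46 ± 0.21) and the secreted Egfl7 (-1.51 ± 0.21) fell without overlap, while the adhesion molecule Cdh5 (-0.80 ± 0.20) and the receptor Flt1 (-0.89 ± 0.25) fell with overlap. The glucose transporter Slc2a1 (-0.04 ± 0.18, adjusted p = 0.914), the membrane protein Ly6c1 (0.19 ± 0.31) and Pecam1 (-0.45 ± 0.15, adjusted p = 0.0571) were not called. When slide was a block, 15 of the 26 falls kept an adjusted p under 0.05, without Cdh5 (adjusted p = 0.0963) and Flt1 (adjusted p = 0.134). The list's median was -0.84 with the block and -1.0 and -0.67 within the mixed slides. None of 12 pericyte and muscle markers was called, with a median change of -0.70 (-0.46 with normexp background correction) and -0.77 ± 0.35 for the receptor Pdgfrb. Of 11 fibroblast and meningeal markers, 1 fell, the transcription factor Foxc1 (-1.06 ± 0.25, adjusted p = 0.0561 with slide as a block).

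Several genes of activated vessels rose in the same samples. Selp, the selectin that slows leukocytes on the vessel wall, was above background on no PBS and on all IL1B arrays. Its levels were 2.15 to 3.15 (median 2.70) without and 6.38 to 7.56 (median 7.37) with IL1B, at least 11.8-fold higher (adjusted p = 9.59e-07). Its relative Sele was likewise at least 2.46-fold higher. The adhesion molecules Icam1 (1.93 ± 0.13), Madcam1 (1.21 ± 0.23) and Vcam1 (0.70 ± 0.12) and the venular chemokine receptor Ackr1 (1.61 ± 0.15) rose, in all 9 of 20. Vwf (-0.66 ± 0.17), Thbd (-0.80 ± 0.23) and Esm1 (-1.10 ± 0.30) fell, with overlapping groups. With slide as a block, 7 of the 12 calls kept an adjusted p under 0.05, without Vcam1 (adjusted p = 0.0668), Vwf (adjusted p = 0.0585), Thbd (adjusted p = 0.195) and Esm1 (adjusted p = 0.32).

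Signalling genes that fell included single members of the Wnt and BMP pathways, both of which act on vessels and on oligodendrocyte maturation. Of 23 Wnt receptors and targets, 5 fell and none rose. Lef1, a transcription factor of the pathway, fell on both probes, with levels of 10.19 to 11.24 (median 10.66) and 8.73 to 9.11 (median 8.88) on the brighter (change -1.77 ± 0.19). The receptor Fzd6 (-1.23 ± 0.22) and the targets Tcf7 (-0.91 ± 0.13), Nkd1 (-0.68 ± 0.10) and Apcdd1 (-0.76 ± 0.20) fell, while Axin2, a common readout, had a change of -0.40 ± 0.15 (adjusted p = 0.101). With slide as a block, the change of Axin2 was -0.85 (adjusted p = 0.00216, limma). Its other probe, with a change of -0.71 without the block, was not called. In the list of differentiation inhibitors, 5 of 22 fell and 2 rose. The BMP-induced genes Smad6 (-2.11 ± 0.21), Id1 (-0.93 ± 0.17) and Id3 (-0.55 ± 0.15), the Notch target Hey2 (-0.93 ± 0.16) and Bmp4 (-0.71 ± 0.05), a ligand made by committed precursors, fell, Bmp4 on 1 of its 2 probes. Among the other members of this mixed list, Smad7 (0.38 ± 0.08), Id4 (-0.07 ± 0.35), Hes1 (0.10 ± 0.13), Hey1 (-0.27 ± 0.05) and Hes5 (-0.38 ± 0.08) were not called. Id2, an inhibitor of oligodendrocyte differentiation, rose, with levels of 11.59 to 11.75 (median 11.67) without and 12.89 to 13.38 (median 13.09) with IL1B. Its groups did not overlap (change 1.45 ± 0.07, adjusted p = 7.26e-07, limma). Notch2 rose by 0.82 ± 0.13 on 1 of its 2 probes. In PBS samples both had less signal in O4+ than in CD11B+ cells, by 2.27 and 2.52 on the log2 scale, and Id2 also rose in CD11B+ cells (0.85 ± 0.07). The part of the microglial markers, of which 16 of 23 rose, was not tested. Of 22 angiogenic and hypoxia genes, 3 rose and 1 fell. The ligand Vegfc fell (-1.11 ± 0.17), while the platelet-derived factor Pdgfb (0.93 ± 0.14), the vasodilator adrenomedullin Adm (0.74 ± 0.07) and Hif3a rose. The 5 Wnt genes that fell also fell in CD11B+ cells of the same age, Lef1 by 1.88 ± 0.27 on the log2 scale and Fzd6 by 1.22 ± 0.25. Of the 37 endothelial markers, 26 fell in the same O4+ samples, and their part in these falls was not tested. Under the slide block, Apcdd1 (adjusted p = 0.196), Id3 (adjusted p = 0.185) and Hey2 (adjusted p = 0.0688) lost their calls, with blocked changes of -0.63, -0.51 and -0.88.

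Genes of the oligodendrocyte lineage moved little by comparison. Of 16 lineage markers, none rose and 1, Enpp6, fell (median change -0.31). Olig2, the factor that defines the lineage, had levels of 13.81 to 14.06 (median 14.04) and 13.70 to 14.03 (median 13.88), which overlapped (change -0.13 ± 0.06, adjusted p = 0.2). Sox10, needed for myelin gene activity, lay at 15.16 to 15.33 (median 15.19) without and 14.78 to 14.96 (median 14.91) with IL1B, apart but under the fold threshold (change -0.33 ± 0.04, adjusted p = 0.000489). Nkx2-2, which starts differentiation, had a change of -0.58 ± 0.08 on its brighter probe, also under the fold threshold, and was called on its other probe. By the brightest probe of each gene, Nkx6-1 (-0.92 ± 0.21) and Nkx6-2 (-0.54 ± 0.11), both with overlap, were those that fell among 19 lineage transcription factors, and Nkx6-1 had an adjusted p of 0.0501 with slide as a block. No gene was called among 18 progenitor genes (median change -0.15), where the growth factor receptor Pdgfra had a change of -0.07 ± 0.07 (adjusted p = 0.566) and the proteoglycan Cspg4 one of 0.18 ± 0.07.

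Most differences in committed precursor and myelin genes stayed under the fold threshold. Among 16 committed precursor genes, Enpp6 (-0.53 ± 0.12), an enzyme of newly formed oligodendrocytes, and Bmp4 fell, and Bcas1, which marks cells starting to myelinate, had a change of -0.51 ± 0.08 with no overlap. Of 28 structural myelin and mature oligodendrocyte genes, 9 had every IL1B array below every PBS array (6.89% of all probes did), but only 1 was called lower, the myelin membrane gene Opalin (-0.78 ± 0.17, adjusted p = 0.00738, and 0.188 with slide as a block). Mbp, the myelin basic protein, had levels of 13.07 to 13.42 (median 13.22) without and 12.46 to 12.97 (median 12.72) with IL1B, a change of -0.53 ± 0.09 (adjusted p = 0.00146). The changes of Cnp (-0.38 ± 0.07), Mag (-0.46 ± 0.10) and Mog (-0.42 ± 0.09) had adjusted p-values between 0.00292 and 0.00943. Ermn, a late cytoskeletal protein, had a change of 0.32 ± 0.20, and Trf, the iron carrier transferrin, rose by 1.11 ± 0.11. The median of the list was -0.26, beside -0.04 over all probes.

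Metabolic and cell cycle genes were mostly uncalled. None of 22 myelin lipid enzymes was called, though Fa2h, which hydroxylates myelin fatty acids, had a change of -0.46 ± 0.09 (adjusted p = 0.00547) under the fold threshold. Of 28 cholesterol genes, those that rose were the efflux pumps Abca1 (0.99 ± 0.10) and Abcg1 (0.63 ± 0.09). Of 22 glycolysis genes, Pfkfb3 (1.72 ± 0.11), which drives glycolysis in activated cells, and Hk2 (0.77 ± 0.10) rose. In PBS samples, Pfkfb3 and Hk2 had less signal in O4+ than in CD11B+ cells (-2.79 and -2.92 on the log2 scale). The part of the microglial markers' rise in both was not tested. Of the 22 genes, 9, among them Gapdh, Pkm and Ldha, had every IL1B array below every PBS array (6.89% of all probes did) without being called. None of 32 respiratory chain genes was called. Of 33 genes of DNA replication and mitosis, none was called (median change -0.22). The proliferation marker Mki67 had levels of 13.09 to 13.43 (median 13.25) and 12.82 to 13.21 (median 13.01), which overlapped (change -0.25 ± 0.08, adjusted p = 0.054). Of 20 G1 regulators, the kinase Cdk6 (0.90 ± 0.13) and the inhibitor Cdkn1a (0.93 ± 0.13) rose. Among 22 p53 and apoptosis genes, 5 rose, Cdkn1a again, the pro-apoptotic Pmaip1 (1.58 ± 0.13) and the survival gene Bcl2l1 (0.86 ± 0.04) among them. All 5 had less signal in O4+ than in CD11B+ cells in PBS samples, as had 16 of the 22 (29% of all probes did), and the part of the microglial markers' rise was not tested. The AMPA receptor subunit Gria1 was the 1 glutamate receptor gene of 22 that rose, with overlap (0.77 ± 0.24). Its adjusted p was 0.0464, and 0.109 with slide as a block, where the change was 1.06.

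The P5 response was set beside that of O4+ cells at P10, days after the last injection, on arrays that share no sample with it. Of the 1916 probes that rose at P5, 337 also rose at P10 (2.49% of all probes rose there), 17.6% of the P5 and 24.3% of the P10 rises, and 25 fell. Of the 827 that fell, 44 fell at P10 (1.41% of all probes fell there), 5.32% of the P5 and 5.6% of the P10 falls, and 21 rose. The difference of the 2 responses was more positive at P5 on 2961 probes (5.32%) and more negative on 4361 (7.83%) by the interaction term.

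For named genes the difference with age was tested directly. Lcn2 had a change of 0.38 ± 0.21 at P10, a difference of 6.26 ± 0.31 (adjusted p = 1.34e-10). Ccl12 changed by 0.56 ± 0.16 at P10 (difference 3.22 ± 0.20, adjusted p = 1.7e-09). Il1b rose at P10 as well, by 2.74 ± 0.25, and the interaction was not past the threshold (adjusted p = 0.623). The microglial marker Tmem119 changed by 0.05 ± 0.18 at P10 (difference 1.02 ± 0.20).

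Gene groups were compared in the same way. Of 20 MHC class I genes, 14 rose at P10 (median change 0.97), and the interaction passed the threshold for 2 of the 20, 1 in each direction. The response of 8 of 21 acute-phase genes was more positive at P5, and their P10 median was -0.02. Endothelial markers had a P10 median of -0.01 with none called. The response was more negative at P5 for 22 of the 37 endothelial markers, Gja5 among them (P10 change -0.22 ± 0.24, difference -3.14 ± 0.36, adjusted p = 5.77e-06). For replication and mitosis genes it was more negative at P5 in 29 of 33, and 24 of them rose at P10 (median 0.82). Mki67 rose by 0.97 ± 0.09 at P10 and differed by -1.22 ± 0.12 (adjusted p = 1.08e-06). Myelin genes had a median of -0.60 at P10, where 14 of 28 fell, and the response was more positive at P5 for 3 of them and more negative for 1. P5 and P10 arrays of O4+ cells shared no slide. With slide as a random block, 5906 probes had an interaction past the threshold, against 7322 without it.

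**Figure D5:**
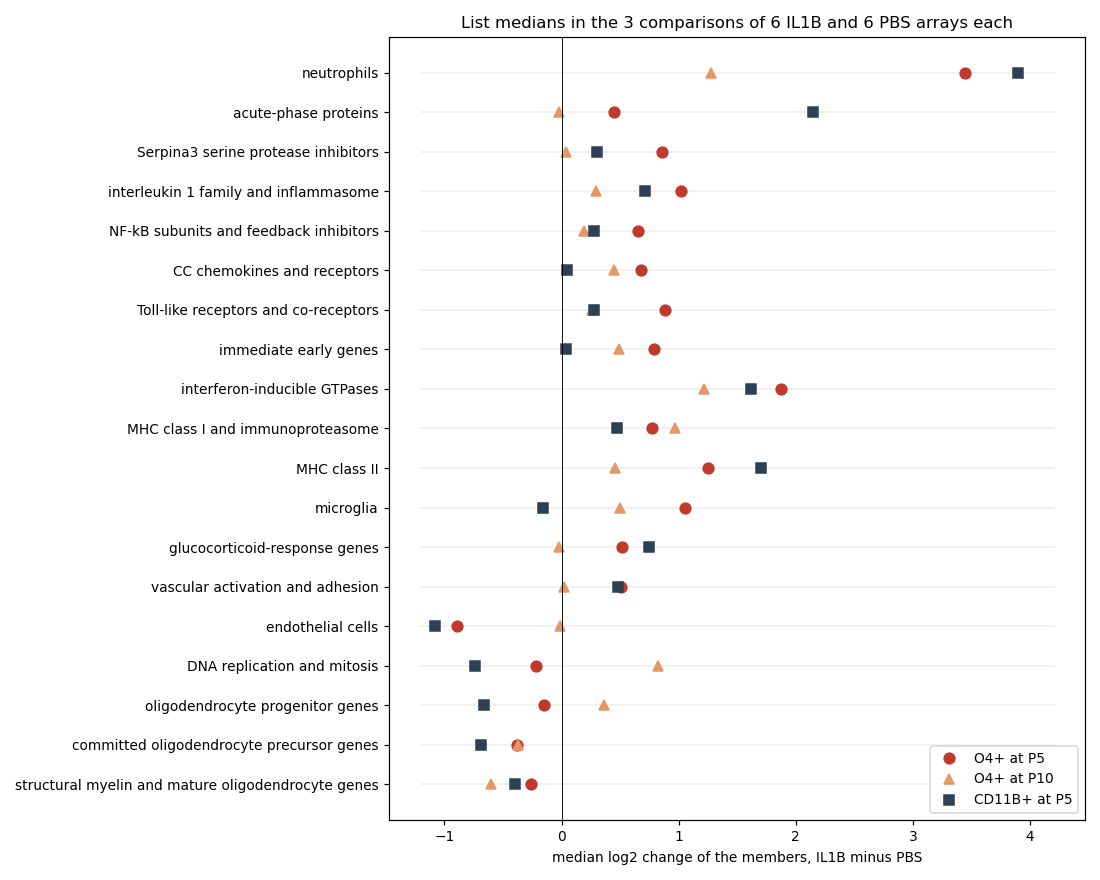
Median log2 change with IL1B over 19 gene and marker lists in O4+ cells at P5, O4+ cells at P10 and CD11B+ cells at P5. Microglial markers and immediate early genes are above 0 in O4+ cells at P5 and near 0 in CD11B+ cells, and replication and mitosis genes lie at -0.22, 0.82 and -0.74.

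The CD11B+ cells of the same pups gave the other comparison. The arrays of both were normalized together for the interaction, so a difference need not equal that of the changes given for each cell type. Of the P5 rises in O4+ cells, 823 also rose in CD11B+ cells (3.98% of all probes rose there), 43% of the O4+ and 37.2% of the CD11B+ rises. Of the falls, 312 also fell in CD11B+ cells (5.01% of all probes fell there), 37.7% of the O4+ and 11.2% of the CD11B+ falls. The response was more positive in O4+ cells on 3858 probes (6.93%) and more negative on 2107 (3.78%). With slide as a random block, 4210 probes had an interaction past the threshold, against 5965 without it. Both fits took the O4+ and CD11B+ arrays as independent although the cells came from the same tissue, and with treatment and replicate number as a random block in place of slide the count was 6409, if the labels' numbers mark that tissue, which is not stated. Lcn2 rose by 4.77 ± 0.22 in CD11B+ cells, less than in O4+ cells (difference 2.14 ± 0.33, adjusted p = 0.000106). Ccl12 (1.99 ± 0.08, difference 1.95 ± 0.13) and Il1b (0.71 ± 0.07, difference 1.89 ± 0.19, adjusted p = 5.71e-07) also rose more in O4+ cells. Mogat2 fell in O4+ cells and had a change of 0.78 ± 0.30 in CD11B+ cells (difference -3.35 ± 0.50, adjusted p = 6.93e-05), and at P10 it changed by 0.10 ± 0.33. Of the 37 endothelial markers, 29 fell in CD11B+ cells (median change -1.08), beside the 26 that fell in O4+ cells. Mki67 fell in CD11B+ cells (-0.81 ± 0.12, difference 0.55 ± 0.15, adjusted p = 0.0183), as did 25 of 33 replication and mitosis genes.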

How the data were processed

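O4+ cells at P5 from 6 IL1B and 6 PBS samples were measured on 1-color arrays. Per the file headers, the authors' scans were read with Feature Extraction 10.7.3.1, and the deposited intensity is the background-subtracted processed signal, and probe positions are in mm9. The deposited matrix of the series holds, for each array, the ratio of that signal to the array's median, to within 1.86e-05 in log2, and was used as an alternative.

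In R 4.3.3, control spots and 278 non-uniform spots on the 48 arrays (48 of them on the 12 arrays) were left out, no spot was saturated, and log2 intensities were quantile-normalized over the 24 O4+ arrays, or over all 48 arrays for the comparison with CD11B+ cells. Of 59305 spots, those of a probe were averaged to 55681 probes, of which 31398 were matched to a RefSeq gene (27235 by accession, 83 by another listed accession, 4080 by name) and 24283 were not. Groups were compared with limma 3.58.1, with p-values adjusted by Benjamini-Hochberg over all probes. Calls needed an adjusted p under 0.05 and group medians over 1.5-fold apart. A probe above background on no array of a group gives only a bound, computed from the lowest signal above background on each array. On simulated data for this comparison with 55681 probes, 98% of changes of 2 on the log2 scale were recovered. The simulation drew independent noise without a slide effect and changed only probes above background on all 12 arrays. It therefore does not cover dim probes or the uneven slides.

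The genes named are the 15 largest rises and falls among called probes above background on all 12 arrays with separate groups, the 10 largest bounds of genes above background only with IL1B and those the other way, and in each list members with the largest changes or a defining role. Each list is read by 1 probe per gene, the brightest, and lists overlap. Of 688 list genes not called by that probe, 19 had another probe that was called. Some of these genes are counted in their lists but are not reported here by name. The members and lists were chosen with earlier results of these data known. Alternatives changed the normalization, background correction, test, thresholds, slide, scan day and pairing, and left out each array in turn.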

Additional observations from a re-analysis of the deposited data

Results flagged for a closer look

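In 8 of 194 groups of 6 arrays examined, 1 array lay far from the others for its group, where chance gives about 1 in 20 groups, or 9.7. IL1B array 4 was highest for the mean level of interferon receptors and transcription factors (9.50) and of MHC class I genes (11.91), and PBS array 6 for the respiratory chain (14.31). Among genes, PBS array 2 was highest for Lcn2 (6.69) and Ngp (2.33), PBS array 1 was lowest for Tgtp2 (6.24) and highest for Cd300lf (6.20), and PBS array 4 was highest for Retnlg (3.63).

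The responses of O4+ cells at P5 and P10 differed, by the interaction term in limma, on 2961 probes more positive and 4361 more negative at P5. The log2 differences, P5 minus P10, were 6.26 for Lcn2, 3.22 for Ccl12, 1.02 for Tmem119, -1.22 for Mki67, -2.67 for Mogat2 and -3.14 for Gja5. The response was more negative at P5 for 22 endothelial markers and for 29 genes of replication and mitosis.

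Between O4+ and CD11B+ cells at P5, 3858 probes responded more positively and 2107 more negatively in O4+ cells. The log2 differences, O4+ minus CD11B+, were 2.14 for Lcn2, 1.95 for Ccl12, 1.89 for Il1b, 1.42 for Atf3, 1.37 for Tmem119, 0.55 for Mki67 and -3.35 for Mogat2. The response was more positive in O4+ cells for 21 microglial markers and for 21 immediate early genes.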

How the results depend on the processing

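None of the called genes recomputed under the alternatives changed direction, nor did any list median given above. Changes of some uncalled genes did change sign, such as that of Gfap with slide as a block. With normexp background correction (offset 50), 1117 probes rose and 256 fell, and the median changes were 0.43 for CC chemokines, 0.42 for NF-kB genes and 1.3 for neutrophil markers. The deposited matrix gave 1829 higher and 1300 lower, and no fold threshold gave 3760 and 6416. With slide as a block, 1418 rose and 391 fell and the CC chemokine median was 0.95, and with scan day as a block the endothelial median was -0.61. Restricting to probes above background in all arrays of a group gave an acute-phase median of 2.74, a filter that genes bright only with IL1B pass because they are higher there. The cause of the other shifts was not tested. Under alternatives that keep every array, named genes stayed on their side of the threshold in 2070 fits, lost it in 43 and gained it in 20, and with 1 array left out these counts were 2790, 39 and 15. The methods' t-test gave 1816 higher and 739 lower.

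Leaving out each array in turn gave 1780 to 1961 higher and 699 to 864 lower probes. The median changes ranged from 0.34 to 0.65 for acute-phase genes, 0.56 to 0.86 for CC chemokines, 0.29 to 0.59 for CXC chemokines, 0.31 to 0.39 for IL6 and STAT3 genes, 1.68 to 2.05 for GTPases, 0.59 to 0.7 for NF-kB genes, -0.33 to -0.2 for myelin genes, -1.03 to -0.77 for endothelial, 0.97 to 1.1 for microglial and 3.11 to 3.9 for neutrophil markers. The replicate numbers of the labels share only a number: same-numbered arrays correlated at 0.07 to 0.3 in their deviations from the group means, and 2 of 6 IL1B arrays correlated best with their own number. With the replicate block, 1813 probes rose and 806 fell. Dim probes limit what can be read, since a gene above background in 1 group has only a bound.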
